A study of Mus musculus with 8 samples.

Results

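The 32 types of short interspersed element (SINE) of the B1, B2, B4, ID and MIR families were followed in RNA of mouse embryonic stem cells that carry a conditional knockout of Ythdc1, the gene of a nuclear reader of N6-methyladenosine. They were picked from the deposited table by name alone: names starting with B1, B2_, PB1 or RSINE, and the names B3, B3A, B4, B4A, ID, ID2, ID4, ID4_, ID_B1, MIR, MIR3, MIRb and MIRc. They were 32 of 1039 repeat types and of 38971 entries in all, and 7 RIKEN clone genes whose names also start with B1 were not members. By family they were 15 B1 types (the PB1 types included), 5 B2 types (B3 and B3A included), 3 B4 types (RSINE1 included), 5 ID types and 4 MIR types. All 32 passed the filter on low values, as did 950 of the 1039 repeat types.

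SINEs are short elements that depend on proteins of LINE-1 for their copying. B1 descends from 7SL RNA, the RNA of the signal recognition particle, whereas B2, ID and MIR carry a head derived from a transfer RNA and B4 joins ID-like and B1-like sequence. Their own promoters, an A box and a B box inside the element, are read by RNA polymerase III (Pol III), but most copies lie in introns and between genes, where RNA polymerase II (Pol II) reads through them as part of longer transcripts. Of the subtypes, B1_Mm, the B1_Mus types and the B2_Mm1 types are young, the PB1 and B1F types are old B1 forms, and MIR elements are ancient and shared by mammals. The value of a type sums reads over its many copies in the genome, so it does not tell a Pol III transcript of an element from Pol II reading through it.

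The start of Bc1, the gene of the Pol III transcript BC1 from which rodent ID elements descend, is shown because it holds the kind of internal promoter on which ID and B2 elements rely. It is given 5′ to 3′ from RefSeq on GRCm38.p6, chr7:144914470-144914519 on the plus strand, a noncoding RNA gene.
Bc1: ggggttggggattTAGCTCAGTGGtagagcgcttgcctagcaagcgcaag
The capitals mark bases 14 to 24, its A box (TAGCTCAGTGG). Searched letter by letter on both strands, these 11 bases were in 20 of 32851 RefSeq promoter windows of 300 bases (0.0609%). A match is only a match of letters. The gene Bc1 had no entry of its own in the table, which lists the repeat type BC1_Mm instead.

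RNA was measured by 4sUDRB-seq, in which DRB stops Pol II near promoters, is washed away, and RNA made afterwards is tagged with 4-thiouridine (4sU) and purified. The cells were a feeder-free line of male embryonic stem cells from 129 mice, kept in serum and LIF, with the genotype Ythdc1_cKO in every group. They were given DMSO, the solvent, or 4-hydroxytamoxifen (4OHT, 1 µg/ml), which starts deletion in inducible knockout lines, during 4 days. All groups then had DRB (100 µM) during 3 h and 4sU (1 mM) during 0 or 8 min. This made 4 groups of 2 libraries: DMSO at 0 min, 4OHT at 0 min, DMSO at 8 min and 4OHT at 8 min. With no time of labelling, the libraries of 0 min serve as a background. A difference of 8 against 0 min thus sets labelled RNA against that background and does not follow transcription over time. The enzyme and driver of the deletion are not given in the sources used here. The sample titles give stem cell number 1 at 0 min and number 2 at 8 min, while each labelling time has columns of either number, so by the titles the line and the labelling time cannot be told apart. Libraries are called here by group and by the number in their column. Nothing says that libraries came from separate cultures, so p-values here measure the spread between these samples only, and that spread may be technical.

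The deposited values are whole reads over a divisor that ranged from 8.10 to 29.5 among libraries, and multiplied back they gave from 46.3 to 61.4 M (mega) reads per library of 0 min and from 93.1 to 134 M per library of 8 min. The targeted gene Ythdc1 (chromosome 5, 86803980 to 86836659 on GRCm38.p6) had deposited values at 0 min of 133 and 185 in the DMSO libraries and 129 and 412 in the 4OHT libraries, and at 8 min of 1409 and 2708 against 2696 and 5168. The treatments overlapped at both times, and since the deleted part of the gene is not given, reads over the whole gene do not check the deletion. Scaled to the other genes at 8 min, as described below, Ythdc1 fell by 0.53 on the log2 scale (SE 0.111; limma adjusted p = 0.000888). Embryonic stem cell markers summed to 3115 to 11485 in the 8 libraries, against 27.8 to 81.5 for fibroblast markers, 9.22 to 119 for trophoblast markers and 15.7 to 139 for primitive endoderm markers, and no listed marker was at 0 in every library. The summed 2-cell-like markers, which rise in cells that resemble the 2-cell embryo, stood at 341 and 513 in the 4OHT libraries of 8 min, against 11.7 and 18.5 in the DMSO libraries. At 0 min they stood at 8.70 and 11.0 in the DMSO libraries, 97.1 in 4OHT number 2, and 8.06 in the library labelled 4OHT 0 min number 1, which thus lay among the DMSO libraries. Gene by gene, this library also differed from DMSO 0 min number 1 by a mean chi-square of 13.7, against 42.4 from the other 4OHT 0 min library. The number 1 and number 2 libraries of DMSO at 0 min also lay apart (36.5), the number 2 libraries of the treatments differed by 27.5, and libraries of 1 group at 8 min by 11.09 to 12.01. Several fitted medians and changes that rest on the 0 min 4OHT libraries are given with and without the library labelled number 1. Those given below after a scaling of all 8 libraries include it throughout.

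SINE types took fewer reads than all other repeat types together at 0 min and more at 8 min. Their share of the reads of all repeat types was, at 0 min, 42.8% and 41.4% in DMSO libraries and 43.5% and 42.5% in 4OHT libraries. At 8 min it was 54.4% and 55.5% in DMSO libraries and 55.9% and 55.0% in 4OHT libraries. All 4 libraries of 8 min lay above all 4 of 0 min, and the DMSO and 4OHT libraries overlapped at both times. The mean share was 55.2% ± 0.680 (SD, n = 4) at 8 min and 42.6% ± 0.870 (SD, n = 4) at 0 min, with a two-sided exact permutation p of 0.0286, the smallest that 4 against 4 libraries can give. That test was not planned, and with no overlap between the times its p could only be this smallest value. It joins both treatments, and no model was fitted to the shares within a treatment. The share does not depend on the number each library was divided by. Between 4.57 M and 22.6 M reads per library fell on SINE types, and the least read type, ID2, still had 8439 to 58620.

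**Figure D1:**
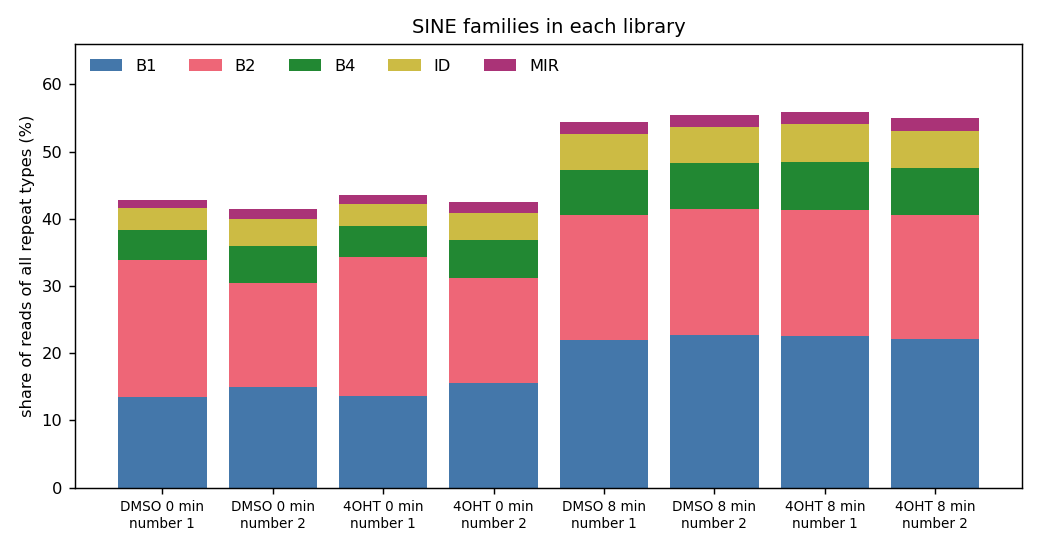
Share of the reads of all repeat types (in percent) that fell on each SINE family in each of the 8 libraries, as stacked bars. The stacks reach 41.4% to 43.5% at 0 min and 54.4% to 55.9% at 8 min, and the B2 layer is thickest in the number 1 libraries of 0 min (20.3% and 20.6%).

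The families did not share this difference between times equally. B1 types, the 7SL-derived family, took 13.5% and 15.0% of repeat reads with DMSO at 0 min, 13.7% and 15.5% with 4OHT at 0 min, 22.0% and 22.7% with DMSO at 8 min, and 22.5% and 22.1% with 4OHT at 8 min. B2 types took 20.3% and 15.5%, 20.6% and 15.8%, 18.5% and 18.7%, and 18.8% and 18.4% in the same order. So B1 was higher in every library of 8 min than in any of 0 min, whereas for B2 the number 1 libraries of 0 min were the highest of all and the number 2 libraries the lowest. B4 types (4.41% to 5.64% at 0 min, 6.75% to 7.16% at 8 min), ID types (3.28% to 4.01%, then 5.30% to 5.54%) and MIR types (1.26% to 1.60%, then 1.82% to 1.94%) were each higher at 8 min without overlap.

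By mean deposited value over the 8 libraries the first were B1_Mus1 (60895) and B1_Mus2 (45873) among B1, B3 (107947) and B2_Mm2 (96108) among B2, RSINE1 (59039) and B4A (38448) among B4, ID_B1 (63574) and ID4_ (12115) among ID, and MIR (11417) and MIRb (11414) among MIR. This order gives most weight to the 4OHT libraries of 8 min, whose values were highest. In both number 1 libraries of 0 min the largest SINE type was B2_Mm1a, at 28681 with DMSO and 28684 with 4OHT, against 18199 and 18238 for B3. These are summed reads, not divided by the length or copy number of a type, so they order the signal and not the activity of single copies. How reads that fit several copies were assigned is not given in the sources used here, and reads of near-identical types such as B1_Mus1 and B1_Mus2 may be divided between them in an unknown way.

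With 4OHT at 8 min, every SINE type had a higher deposited value than with DMSO, by about as much as genes at large. B1_Mus1 had 43702 and 74532 with DMSO against 118435 and 179670 with 4OHT. B3, the most abundant B2-related type, had 72774 and 122494 with DMSO against 213063 and 327158 with 4OHT. The values of RSINE1, a B4-related type, were 40211 and 67230 against 116830 and 180357. In each case both 4OHT libraries lay above both DMSO libraries, and this held for all 32 types, as for 97.8% of all repeat types, but the number 2 libraries were the higher of both groups. The median SINE type changed by 1.47 on the log2(value + 1) scale, the median gene by 1.43 and the median repeat type by 1.42.

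None of the 32 passed the test on this scale. limma called 0 SINE types higher and 0 lower, as it called 0% of the 950 repeat types in either direction. At an unadjusted p under 0.05, 3 of the 32 SINE types were higher, against 699 of the 950 repeat types. Among SINE types the smallest limma adjusted p was 0.0587, for ID2 (1.43, SE 0.686) and MIR3 (1.52, SE 0.729), and that of ID (1.44) was 0.0640. The fit shares 1 estimate of spread over all 8 libraries. Leaving out either 4OHT library of 0 min therefore changed the calls at 8 min, with more SINE types called higher and the same fold changes. Without a trend in the spread limma called 31 of the 32 higher (ID2 at adjusted p = 0.0431), and 687 of the 950 repeat types. With median-ratio scaling of all 8 libraries the median gene went to −0.077 and 0 types were called, and relative to the median gene ID2 stood at −0.042 and MIR3 at 0.052, against −0.0046 and 0.089 before that scaling.

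Because genes shifted together, the 4 libraries of 8 min were also scaled by the median ratio of their genes, so that a change reads relative to genes. On that scale the SINE types lay at the level of genes, with a median log2 change of 0.00082, against −0.0011 for genes and −0.039 for all repeat types. Of the 32, 16 lay above the median gene and 16 below, where 385 of 950 repeat types lay above and 565 below. Here limma called 0 SINE types higher and 0 lower, and 1.47% of repeat types higher (14 of 950) and 5.47% lower (52). The types ran from −0.29 for B2_Mm1a to 0.055 for MIR3, a much smaller spread than the −1.52 to 1.14 of all repeat types.

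B2_Mm1a, a young B2 type, was the SINE type with the largest difference. Its scaled values were 48779 and 47820 in DMSO libraries against 41187 and 37762 in 4OHT libraries, so that both 4OHT libraries were lower. The log2 change was −0.29 (SE 0.115; limma adjusted p = 0.165; unadjusted p = 0.0193), which did not pass. It was called lower by edgeR (adjusted p = 0.0133) and DESeq2 (adjusted p = 0.0274) on the recovered reads, after scaling on repeat types (−0.25; adjusted p = 0.0184), and when DMSO 8 min number 1 (−0.28; adjusted p = 0.00964) or its partner (−0.31; adjusted p = 0.00596) was left out. It was not called when 4OHT 8 min number 1 (−0.35; adjusted p = 0.886) or its partner (−0.23; adjusted p = 0.956) was left out, nor after scaling by spike-in RNAs (−0.16; adjusted p = 1.00), a scaling that sets the median gene at 0.12.

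The other types of large B1 and B2 difference were also young ones. B1_Mm had scaled values of 35008 and 37898 with DMSO and 33832 and 31853 with 4OHT (log2 change −0.15; adjusted p = 0.578). B2_Mm1t had 52436 and 53656 against 49806 and 47375 (−0.13; adjusted p = 0.682). Both 4OHT libraries lay below both DMSO libraries in each, by less than the fit could call. B1_Mus2 (−0.12) and B1_Mus1 (−0.12) followed. Spike-in scaling, which moved all entries alike, put B2_Mm1t, B1_Mus2 and B1_Mus1 just above 0, and relative to the median gene they stayed at −0.12, −0.11 and −0.11.

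Along the B1 family the fitted values were graded by subtype. Below B1_Mm and the B1_Mus types came the B1_Mur types, from −0.059 for B1_Mur4 to −0.013 for B1_Mur1, then B1F2, B1F1 and B1F at 0.0043, 0.015 and 0.016. The PB1 types ran from −0.079 for PB1D9 to 0.033 for PB1. In the B2 family the order was B2_Mm1a, B2_Mm1t (−0.13), B2_Mm2 (−0.044), B3A (0.0035) and B3 (0.015). B2_Mm2 had scaled values of 135952 and 146842 with DMSO and 139477 and 134579 with 4OHT, and B3 had 151525 and 162122 against 160960 and 155726, so in both types the groups overlapped. The standard errors of single types were 0.0943 to 0.137, so neighbours in these orders did not differ beyond their error, and no order was tested.

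The remaining families lay close to 0. B4, B4A and RSINE1 were at 0.0088, 0.017 and 0.012, the ID types ran from −0.039 (ID2) to 0.019 (ID4_), and the MIR types from 0.019 (MIR) to 0.055 (MIR3; adjusted p = 0.875). MIR3, an ancient type, had scaled values of 5126 and 5268 with DMSO and 5400 and 5394 with 4OHT, without overlap. The 4 MIR types and 3 B4 types all lay above the median gene, as did 5 of 15 B1, 2 of 5 B2 and 2 of 5 ID types. RSINE1 and B3 turned below 0 without DMSO or 4OHT 8 min number 1 (to −0.034 and −0.036 at the lowest), so their direction rests on single libraries.

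**Figure D2:**
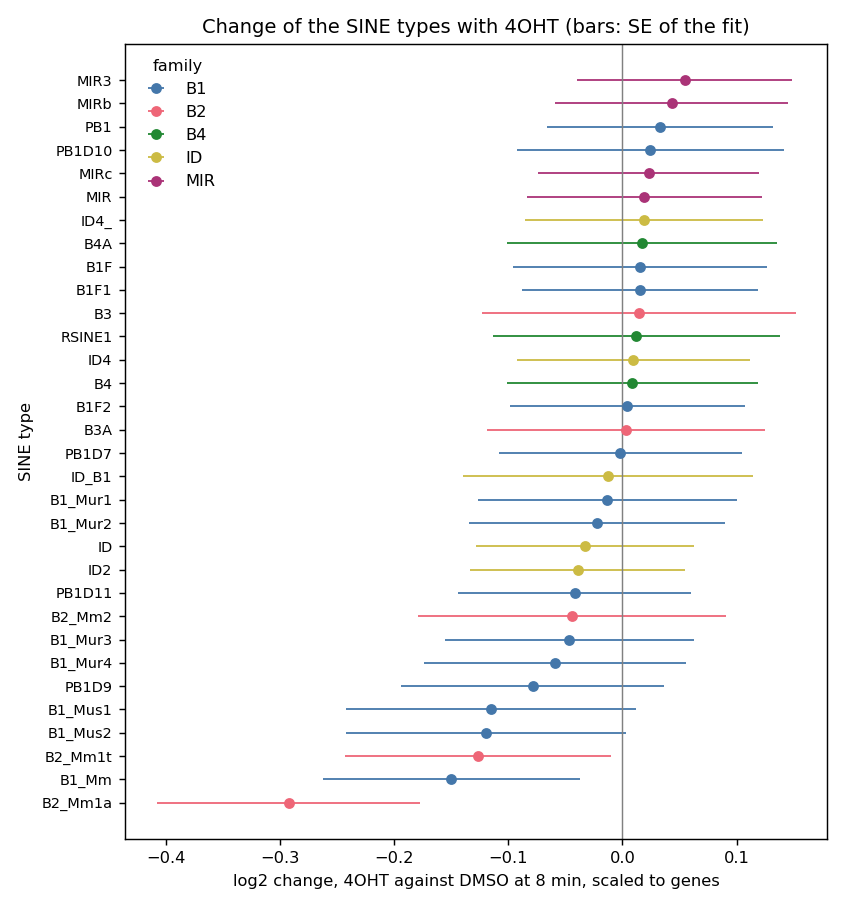
Fitted log2 change of each of the 32 SINE types, 4OHT against DMSO at 8 min after scaling to genes, with bars of 1 SE and colours for the families. B2_Mm1a lies lowest at −0.29, followed by B1_Mm at −0.15, and the bars of most other types cross 0.

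As shares of repeat reads at 8 min, 20 SINE types were higher in both 4OHT libraries than in both DMSO libraries and 5 were lower, while 7 overlapped. Over the 950 repeat types 32.6% were higher and 27.3% lower in this sense. The 5 lower types were B2_Mm1a, B2_Mm1t, B1_Mm, B1_Mus1 and B1_Mus2, and the 20 higher ones held all 4 MIR and all 3 B4 types. B2_Mm1a took 1.98% and 1.86% of repeat reads with DMSO and 1.68% and 1.57% with 4OHT. With gene reads as the denominator in place of repeat reads the balance was the other way: 3 SINE types (MIR, MIR3 and MIRb) were higher, 9 were lower and 20 overlapped, where 20.8% of repeat types were higher and 38.9% lower. The 5 types named above were among those 9. B4A took 2.15% and 2.18% with DMSO against 2.28% and 2.26% of repeat reads with 4OHT. The share of a type also moves with the rest of the repeat reads: L1 types took 18.0% and 17.0% with DMSO and 15.5% and 16.0% with 4OHT, lower in both 4OHT libraries, and their part in the SINE shares was not tested.

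At 0 min no SINE type differed between treatments beyond the spread of the libraries. The deposited values of all 32 overlapped, where 2.84% of repeat types were higher and 0.421% lower without overlap. Here limma called 0 higher and 0 lower, as for 0% of repeat types in each direction. At an unadjusted p under 0.05, 0 SINE types and 4 of 950 repeat types were higher, and 0 of either were lower. The median SINE change was 0.33 against 0.28 for genes. B3 had 18199 and 35494 with DMSO and 18238 and 56158 with 4OHT, and MIR had 1910 and 3711 against 2008 and 6179. In both, the number 1 libraries of the treatments were nearly equal and 4OHT number 2 was the highest. Without the library labelled 4OHT 0 min number 1 the change was 1.14 for B3 (adjusted p = 0.372) and 1.21 for MIR, with 0 types called, and without number 2 it was −0.48 and −0.41. The median SINE change without the library labelled number 1 was 1.11, against 0.69 for genes and 1.11 for repeat types. By share of repeat reads 2 types, B1_Mm and B1_Mus2, were higher in both 4OHT libraries, where 8.32% of repeat types were higher and 4.95% lower, and as shares of SINE reads all 32 overlapped. All 32 also overlapped as shares of gene reads, where 3.16% of repeat types were higher and 2.11% lower.

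Set against the 0 min background, the median SINE type was higher at 8 min by more than the median gene in either treatment. In DMSO the median SINE type changed by 1.93 on the log2 scale, against 1.25 for genes and 1.41 for repeat types. In 4OHT the medians were 3.04, 2.49 and 2.53, and 2.27, 2.06 and 1.74 without the library labelled 4OHT 0 min number 1. In both treatments 30 of 32 types lay above the median gene, and the same 2, B2_Mm1a and B2_Mm1t, lay below it. Over the 950 repeat types 597 lay above it in DMSO and 498 in 4OHT. B1 types had the highest median, 0.77 above the median gene in DMSO and 0.67 in 4OHT, and ID types came next (0.69 and 0.55). The medians of B4 types (0.45 and 0.35), MIR types (0.43 and 0.36) and B2 types (0.46 and 0.31) were lower. L1 types lay 0.17 and 0.026 above the median gene. Without the library labelled 4OHT 0 min number 1 the 4OHT medians relative to the median gene were 0.34 for B1, 0.21 for ID, 0.10 for B2, −0.024 for B4, −0.00020 for MIR and −0.44 for L1 types. Then 26 of 32 types lay above the median gene, against 271 of 950 repeat types, and B4, B4A, MIR3 and MIRc joined the B2_Mm1 types below it. So in 4OHT the place of the B4 and MIR families against genes rests on that library, while that of the B1 and ID families kept its direction.

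In DMSO limma called 9 of 32 SINE types higher and 0 lower, where it called 43.4% of repeat types higher (412 of 950) and 0% lower. Of the 9, 6 were B1 types and 3 were ID types. ID2 had deposited values of 378 and 714 at 0 min and 1666 and 2786 at 8 min (2.05; SE 0.686; adjusted p = 0.0145). ID had 574 and 1133 against 2452 and 4090 (1.97; SE 0.718; adjusted p = 0.0230), and PB1 had 1044 and 1889 against 4351 and 7365 (2.01; SE 0.770; adjusted p = 0.0287). These 3 types had the smallest p, and in each both libraries of 8 min lay above both of 0 min. Among the 9 the largest changes were those of B1_Mur3 (2.10; limma adjusted p = 0.0474), PB1D11 (2.09; adjusted p = 0.0308) and B1F2 (2.09; adjusted p = 0.0349). The count of 9 rested on single libraries: it fell when any DMSO library or any 4OHT library of 8 min was left out, and rose without either 4OHT library of 0 min.

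In 4OHT 30 of 32 types were called higher and 0 lower, where 94.2% of repeat types were called higher (895 of 950). ID2 changed most, followed by B1F2 (3.23) and PB1D9 (3.22), both at 2.45 without the library labelled 4OHT 0 min number 1. Fewer SINE types were called without the library labelled 4OHT 0 min number 1. ID2 had 360 and 1048 at 0 min and 4652 and 7242 at 8 min (3.24; SE 0.686), and changed by 2.47 without that library (adjusted p = 0.00539). B3 was higher at 8 min by 3.04 (SE 1.21, limma adjusted p = 0.0135), and by 2.23 without that library, where it no longer passed. Both libraries of 8 min were the higher ones for all 32 types, as for 95.6% of repeat types. With median-ratio scaling of all 8 libraries the medians of genes fell to 0.10 in DMSO and 0.11 in 4OHT and those of SINE types to 0.69 and 0.55, and 0 types were called in either treatment.

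B2_Mm1a and B2_Mm1t stood apart from the other SINE types between times. B2_Mm1a had deposited values of 28681 and 16820 in DMSO and 28684 and 24500 in 4OHT libraries of 0 min, and of 23428 and 36131 in DMSO and 54519 and 79332 in 4OHT libraries of 8 min. It was the only SINE type whose deposited values overlapped between times in DMSO, where 82.2% of repeat types were higher at 8 min without overlap. The fitted changes were 0.41 in DMSO (adjusted p = 0.734) and 1.31 in 4OHT (adjusted p = 0.223), or −0.84 and −1.18 relative to the median gene. For B2_Mm1t they were 0.81 and 1.85 (adjusted p = 0.489 and 0.0851), or −0.44 and −0.64 relative to genes. Without the library labelled 4OHT 0 min number 1 the 4OHT changes were 1.42 for B2_Mm1a and 1.74 for B2_Mm1t, or −0.64 and −0.33 relative to genes. The next SINE type in this order, MIRc, lay 0.30 above the median gene in DMSO and 0.26 in 4OHT, and at −0.093 in 4OHT without that library.

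As shares of repeat reads, these 2 types were the only SINE types lower at 8 min than at 0 min without overlap, in DMSO and in 4OHT alike, and the other 30 were higher. As shares of gene reads B2_Mm1t overlapped in DMSO. Over all repeat types 39.9% were higher and 26.4% lower in DMSO, and 39.4% and 30.6% in 4OHT. B2_Mm1a took 5.97% and 2.25% of repeat reads in DMSO and 6.11% and 2.14% in 4OHT libraries of 0 min, against 1.57% to 1.98% in the libraries of 8 min. B2_Mm1t took 4.35% and 2.13%, then 4.41% and 2.12%, against 1.97% to 2.12%. The number 1 libraries of 0 min were far above the number 2 libraries, so the size of the difference rests on them: the log2 ratio of 8 to 0 min shares of B2_Mm1a was −1.60 in DMSO number 1 and −0.28 in number 2, and −1.86 and −0.45 in 4OHT.

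As shares of gene reads, of the 6 listed Pol III RNA types 7SLRNA and 7SK were lower in every library of 8 min than in any of 0 min, as B2_Mm1a was. The other 4 were higher. The Pol III RNA genes Rn7sk, Rn7s1, Rn7s2, Rmrp (111 to 215, then 76.1 to 96.4 per M (mega) gene reads) and Rpph1 (322 to 455, then 50.7 to 64.4) were lower at 8 min as well. How many of all entries were lower on this scale was not counted. IAP types were lower too (0.246% to 0.328%, then 0.210% to 0.216% of gene reads), and L1 types overlapped (4.94% to 8.45%, then 7.35% to 8.77%). By deposited value 7SLRNA was lower at 8 min without overlap in DMSO (10721 and 9184, then 2573 and 4798) and overlapped in 4OHT. 7SK overlapped in DMSO and was higher at 8 min without overlap in 4OHT (10205 and 7710, then 10800 and 18896). 7SLRNA, from which B1 descends, had 8006 and 5951 reads per M (mega) gene reads (Gm26917 left out) in DMSO and 7937 and 4307 in 4OHT libraries of 0 min, and 1054 to 1194 at 8 min. 7SK, the RNA that holds the elongation factor P-TEFb, had 8104 and 3871, then 7797 and 3270, against 1575 to 2062 at 8 min. On that scale B2_Mm1a had 21417 and 10900, then 21914 and 10391, against 7226 to 9605. All 3 were highest in the number 1 libraries of 0 min and lowest at 8 min, while B3 was lowest in those number 1 libraries (13590 and 13934) and highest at 8 min (29798 to 31072). BC1_Mm went with B3, with 418 to 653 at 0 min and 743 to 775 at 8 min. So did 4.5SRNA (105 to 148, then 167 to 183), 5S ribosomal RNA (23.0 to 51.5, then 66.5 to 87.1) and U6, a spliceosomal RNA (88.7 to 162, then 168 to 181). The libraries of 0 min also differed from those of 8 min in the transcript Gm26917, which took 23.2% to 27.7% of all reads at 0 min and 2.67% to 3.92% at 8 min, and in the repeat share of all reads (18.7% and 18.9% in number 1, 23.8% and 24.7% in number 2, 30.6% to 31.3% at 8 min). Their part in these differences was not tested.

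**Figure D3:**
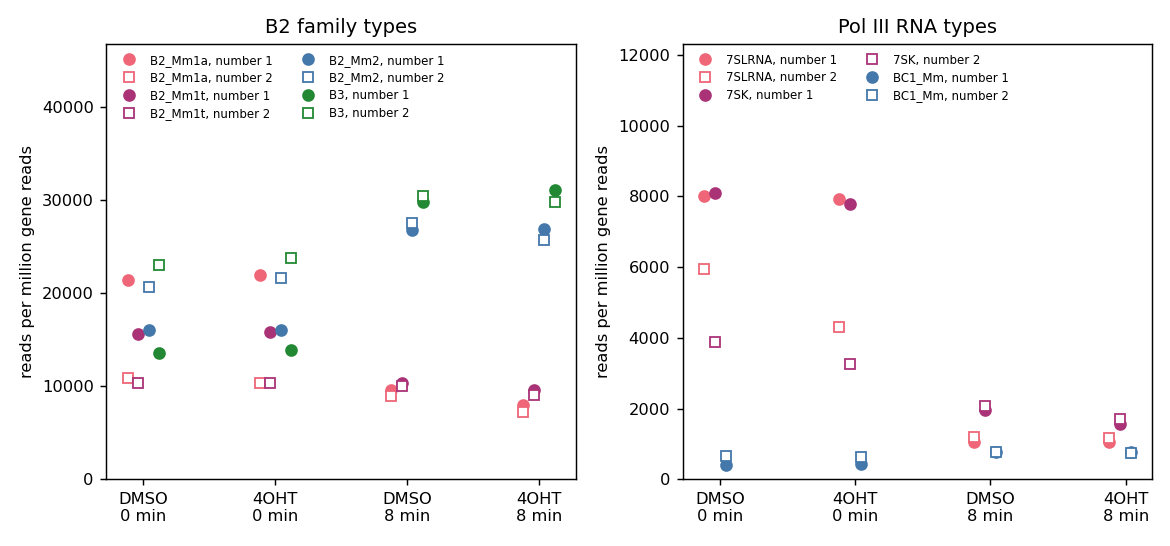
Level in each library, in reads per M (mega) gene reads, by group, for 4 B2-family types (left) and 3 Pol III RNA types (right); filled circles are number 1 libraries and open squares number 2. B2_Mm1a reaches 21417 and 21914 in the number 1 libraries of 0 min and stays at 7226 to 9605 at 8 min, as 7SLRNA and 7SK are also highest at 0 min, while B3 and B2_Mm2 are highest at 8 min.

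**Figure D4:**
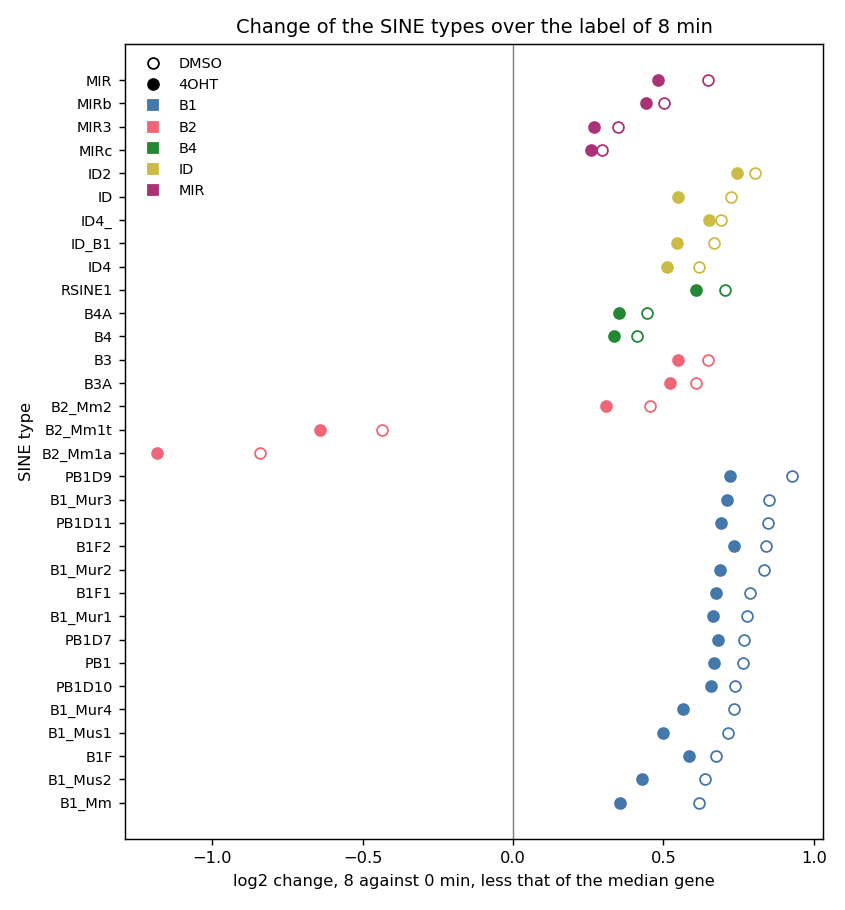
Log2 change of each SINE type between 0 and 8 min, less that of the median gene, with open points for DMSO and filled points for 4OHT, ordered within families. With all 8 libraries in the fit, all types but B2_Mm1a (−0.84 and −1.18) and B2_Mm1t (−0.44 and −0.64) lie to the right of 0 in both treatments; without the library labelled 4OHT 0 min number 1 (not plotted), 26 of 32 do in 4OHT.

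The 4OHT effect of 8 min less that of 0 min was not called for any SINE type by limma (0 higher and 0 lower, as for 0% of repeat types in each direction). At an unadjusted p under 0.05 it was higher for 0 SINE types and for 29 of 950 repeat types. The median difference was 1.14 for SINE types and 1.15 for genes, and B2_Mm1a had the lowest, 0.91 (SE 1.51; adjusted p = 0.580). Without the library labelled 4OHT 0 min number 1 the medians were 0.37 and 0.75, and B2_Mm1a, at 1.02, went from the lowest to the highest. B2_Mm1t (0.93) came next, and these 2 were then the only SINE types above the median gene. B3 had 1.15 (adjusted p = 0.541), and 0.34 without that library. These fits share control libraries, so the values of 1 comparison are not independent of the others.

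The genes of the Pol III pathway were read in the same scaled comparison at 8 min, over genes of which 18.6% were called higher and 16.9% lower. Of 9 listed Pol III RNA genes 5 were tested, 0 were higher and 1 was lower: Rn7sk, the gene of 7SK RNA (chromosome 9, 78175302 to 78175633), had scaled values of 6418 and 7108 with DMSO and 5173 and 5624 with 4OHT (−0.32; SE 0.0992; adjusted p = 0.0148). Of the 6 listed Pol III RNA types, of which BC1_Mm is a repeat type and the others structural types, 7SK was lower (−0.28; adjusted p = 0.0372) and 5 were not called, where 33.3% of all structural types were lower and 0% higher. 7SLRNA (−0.013) and BC1_Mm (−0.024) did not pass.

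Of 30 genes of the Pol III machinery 9 rose, 4 fell and 17 did not pass. Polr3e, a Pol III subunit, had scaled values of 192 and 182 with DMSO and 351 and 320 with 4OHT (0.84; adjusted p = 1.9e-05), without overlap. Gtf3c5 (1.15) and Gtf3c1 (0.60), subunits of the factor TFIIIC that binds the A and B boxes, rose as well. Snapc5, of the complex that reads promoters of the 7SK type, fell by 0.64.

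Of 22 listed regulators and binding proteins of SINE RNA 21 were tested, of which 2 rose, 6 fell and 13 did not pass. Uhrf1, which guides DNA methylation after replication, had scaled values of 394 and 355 with DMSO and 205 and 198 with 4OHT (−0.89; SE 0.118). Adar, which edits adenosines in double-stranded RNA such as paired inverted SINEs, had 131 and 129 against 265 and 234 (0.93; SE 0.129). Ssb, the La protein that holds the ends of new Pol III transcripts, fell by 0.79, and Cbx3, a heterochromatin protein, fell by 0.49. Of all genes tested in this fit 18.6% were called higher and 16.9% lower, and 0 of the 32 SINE types were called. Genes and repeat types were adjusted separately, and a link between these genes and SINE types was not tested.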

How the data were processed

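The authors deposited 1 table of signal values for 8 libraries. The submitters' processing notes name the mm10 build, STAR 2.7, Bowtie2 and bcl2fastq, with no role given. The deposited signal of each library was whole reads over 1 divisor (100% of entries within 0.01 of a whole read). What the divisor is, the strand and the handling of reads with several matches are not given in the sources used here. Counting error is small at this depth and understates the spread. Columns were assigned to groups, not to single samples; 0 columns were left out.

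log2(value + 1) was fitted by group (limma 3.58.1 under R 4.3.3, two-sided, empirical Bayes with a trend) on entries that reached 10 in 2 or more of 8 libraries, with Benjamini-Hochberg adjustment at 0.05 over 950 repeat types, 20657 genes and 45 structural types separately. The scaled comparison used the 4 libraries of 8 min and the median ratio of 20640 genes. On simulated data with an assumed spread, the fit recovered 200 of 200 genes (of 23132) and 20 of 20 repeat types (of 978) changed by 1 log2 unit in that comparison. The largest SINE difference there was −0.29 (B2_Mm1a), so this does not tell how well differences of that size are called. edgeR 4.0.16 and DESeq2 1.42.0 on recovered reads were alternatives. Values of types are summed reads, with no length.

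Named were the 2 most abundant types of each family, some types of largest change or of smallest p in a comparison, and up to 4 genes of smallest p per pathway list. Other SINE types were named after their values were seen. The members and lists were chosen with earlier results of these data known.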

Additional observations from a re-analysis of the deposited data

Results flagged for a closer look

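Of the 32 SINE types, B1_Mm and B1_Mus2 had shares of repeat reads that moved in opposite directions with 4OHT at the 2 labelling times, with every 4OHT library on 1 side of both DMSO libraries each time. B1_Mm took 1.013% and 0.999% with DMSO against 1.02% and 1.05% with 4OHT at 0 min, and 1.42% and 1.47% against 1.38% and 1.32% at 8 min, mean differences of 0.0281 and −0.0954 percentage points. B1_Mus2 took 1.941% and 1.93% against 1.942% and 1.98% at 0 min, and 2.77% and 2.87% against 2.74% and 2.64% at 8 min, mean differences of 0.0281 and −0.130 percentage points. As shares of SINE reads or of gene reads the groups of 0 min overlapped for both types, so the 0 min difference is there only with repeat reads as the denominator. For B1_Mus2 it rests on 1.941% against 1.942%. Over the 950 repeat types 8.32% were higher without overlap at 0 min and 27.3% lower at 8 min, and the share that did both was not counted. The difference between times was not tested for the shares, and on the deposited scale limma called it for 0 SINE types. At 0 min the comparison includes the library labelled 4OHT 0 min number 1. Groups of 2 libraries were too small to look for single libraries far from the rest.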

How the results depend on the processing

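On the deposited scale, counts of SINE types called higher at 8 min with 4OHT were 31 with no trend and 32 with the replicate block (the library number), against 0, and ran from 0 to 13 over libraries left out. The count called lower in the scaled comparison was 1 (B2_Mm1a) after scaling on repeat types, with edgeR and with DESeq2, against 0, and ran from 0 to 1 over libraries left out. The count higher at 8 than at 0 min in DMSO, 9, was 14 with a pseudocount of 5, 0 with no filter, 30 with no trend, 30 with the replicate block, 0 with all 8 libraries scaled by median ratio and 0 to 27 over libraries left out. In 4OHT, 30 became 0 with that scaling. The causes were not tested. These counts between times are not set beside those of all repeat types here, so they show nothing particular to SINE types. The mean SINE share in DMSO 0 min, 4OHT 0 min, DMSO 8 min and 4OHT 8 min was 17.7%, 18.1%, 26.6% and 25.9% as a percentage of gene reads, and 25.2%, 25.7%, 29.7% and 29.3% of repeat reads with B1, B2 and B4 names only.

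The numbers were not read as pairs: same-numbered deviations correlated at 0.465 over genes and 0.295 over repeat types between the 0 min groups and at −2.2e-05 to 0.166 elsewhere, descriptions over entries that share libraries. The replicate block moved no other count by over 1.5 times.

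Signs turned as follows, on scales that moved the median gene as well. With all 8 libraries scaled, which put the median gene at −0.077 for 4OHT against DMSO at 8 min and −0.0037 at 0 min, −0.084 for the difference, and 0.10 (DMSO) and 0.11 (4OHT) between times, B2_Mm1a was −0.37 at 8 min, −0.030 at 0 min, −0.34 for the difference, −0.84 between times in DMSO and −1.18 in 4OHT, and B2_Mm1t was −0.44 and −0.64 between times. ID2 was −0.12, MIR3 −0.025 and ID −0.11 at 8 min, and B3 −0.097 for the difference. In the scaled comparison ID_B1 was 0.016 with no filter, 0.027 after scaling on repeat types and 0.12 with spike-ins, which put the median gene at 0.12 and also gave 0.0024 for B2_Mm1t, 0.0097 for B1_Mus2, 0.014 for B1_Mus1 and 0.085 for B2_Mm2. Over libraries left out there, B3 ran from −0.036 to 0.063, RSINE1 from −0.034 to 0.056, MIR from −0.027 to 0.064, B2_Mm2 from −0.10 to 0.011 and ID_B1 from −0.055 to 0.028. At 0 min B3 ran from −0.48 to 1.14, MIR from −0.41 to 1.21 and B2_Mm1a from −0.11 to 0.66. Of the recomputed counts and shares, 167 kept within 1.5 times or 1 SD of the reported value and 31 did not. That tally includes shares of other denominators or of fewer names, and counts of 0 set against 0, so it does not measure how firm the results are.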
